A study of Mus musculus with 24 samples.

Results

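The genes described here are 35 genes of the synaptic vesicle and of the presynaptic release machinery, taken by symbol from the 33000 genes of the count table. All 35 were found and all 35 passed the filter on low counts. They were measured by 3'Pool-seq, which sequences the 3' ends of mRNA, in frontal cortex of 3-month-old C57BL/6 mice. The 3 WT mice were compared with 3 GFAP-IL6 mice homozygous for a transgene in which the Gfap promoter drives Il6 in astrocytes. Every mouse gave 4 libraries. Tagmentation started from 2 ng or from 1 ng of amplified cDNA, each once in a set A and once in a set B, so that the 24 libraries form 4 sets of 6. What distinguishes A from B is not given in the labels. In this protocol the samples of a pool share cDNA amplification and tagmentation, and if each set was 1 pool then a difference between sets is a difference between single reactions, however many mice show it.

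A synaptic vesicle is filled with transmitter, docks at the active zone, and is primed so that a calcium signal can fuse it with the plasma membrane. Fusion is driven by SNARE proteins on the vesicle and on the plasma membrane, synaptotagmins sense the calcium, and endocytosis then recovers the vesicle membrane. Transcripts of these genes are widely used as a readout of neurons and their synapses in bulk cortex. In bulk tissue, fewer neurons and less of a transcript in each neuron cannot be told apart.

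The whole data set had these features. Libraries held between 1524165 and 12256374 counts, and the 4 libraries of a mouse summed to between 7852743 (WT mouse 3) and 37582644 (GFAP-IL6 mouse 3). Il6 had at most 2 counts in any of the 12 WT libraries and between 3 and 51 counts in the 12 GFAP-IL6 libraries. With counts summed per mouse, edgeR called 263 of 14621 genes at an adjusted p under 0.05, which is 1.80% of the genes tested, with 255 higher and 8 lower in GFAP-IL6 mice. With an absolute log2 fold change above 1 as well, 180 genes remained (1.23%). The 12 neuron markers summed to 6627 CPM (counts scaled to library size with TMM factors) in WT and 6637 CPM in GFAP-IL6 mice, a ratio of 1 (exact permutation test, p = 0.9). Of these 12 markers, 9 had a log2 fold change below 0, while Snhg11 had 830.7 CPM in WT and 1066 CPM in GFAP-IL6 mice. The 10 excitatory neuron markers were at a ratio of 0.943 and the 8 inhibitory neuron markers at 0.967 (exact permutation test, p = 0.4 and 0.5). The 12 microglia markers were at a ratio of 2.04, the 10 astrocyte markers at 1.12 and the 8 endothelial markers at 1.59, each with no overlap between genotypes (p = 0.1, the smallest that an exact permutation test of 3 against 3 mice allows, and 0.333 after Benjamini-Hochberg adjustment over the marker lists). Gene by gene, edgeR called 11 of the 12 microglia markers, 2 of the 8 endothelial markers and 1 of the 10 astrocyte markers, Gfap. The log2 fold change was below 0 in P2ry12 (-0.018) among the microglia markers. Among the astrocyte markers it was below 0 in Aldh1l1 (-0.096) and S100b (-0.092). Choroid plexus markers reached 4073 CPM in WT mouse 3 against 77.9 to 751.1 CPM in the other 5 mice. The part of these cell types in the values below was not tested, and leaving out WT mouse 3 gave no call among the 35 genes.

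No presynaptic gene passed the test between WT and GFAP-IL6 cortex when counts were summed per mouse. Of the 35 genes, 0 were called by edgeR's quasi-likelihood test against the background of 1.80%, and the smallest adjusted p was 0.572. At an unadjusted p under 0.05 there were also 0 of the 35, where 1279 of the 14621 genes tested were under it. DESeq2 also called 0. A fit of limma-voom to the 24 separate libraries, with the mouse as a random block, called 3 of them lower in GFAP-IL6 mice, namely Syt1 (adjusted p = 0.0103), Stx1a (0.018) and Rab3a (0.0337), where it called 4.11% of all genes. That fit used a single correlation for all genes and 24 libraries, while the replicates are 3 mice per genotype. Its p-values can be too small for a gene whose mice differ more than the shared correlation allows. On the log2 scale, the SD between mouse means exceeded that within mice in Syt1 (0.148 against 0.0973) and Rab3a (0.118 against 0.106). In Stx1a it did not (0.0599 against 0.203). The 35 log2 fold changes ran from -0.19 to 0.23 with a median of -0.044, where all genes tested had a median of -0.007. Their median absolute log2 fold change was 0.075, against 0.113 over all genes tested. The 35 genes also had more counts, with a median of 3482 per mouse against 322.2 for all genes tested. Genes of equal depth were not compared. In 25 genes the estimate was below 0 and in 10 above, where 7583 of the 14621 genes tested were below 0.

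The replicates set a limit on how large an undetected change could be. All 35 of the 95% intervals of the log2 fold change included 0. In 32 genes the whole interval lay within 0.5 of 0 on the log2 scale, and in 19 genes within 0.3. The 3 genes with wider intervals, Syn3, Sv2c and Rims2, are among the 4 with the fewest counts. The widest was that of Syn3, from -0.60 to 1.06, and Syn3 had only 8 counts in the mouse with the fewest. Summed over the 35 genes, the level was 13469 ± 421.5 CPM in WT and 12969 ± 454.4 CPM in GFAP-IL6 mice (SD, n = 3 each), a ratio of 0.963. As a share of all counts, without TMM scaling, it was 1.33% ± 0.061 and 1.31% ± 0.028, a ratio of 0.983.

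**Figure D1:**
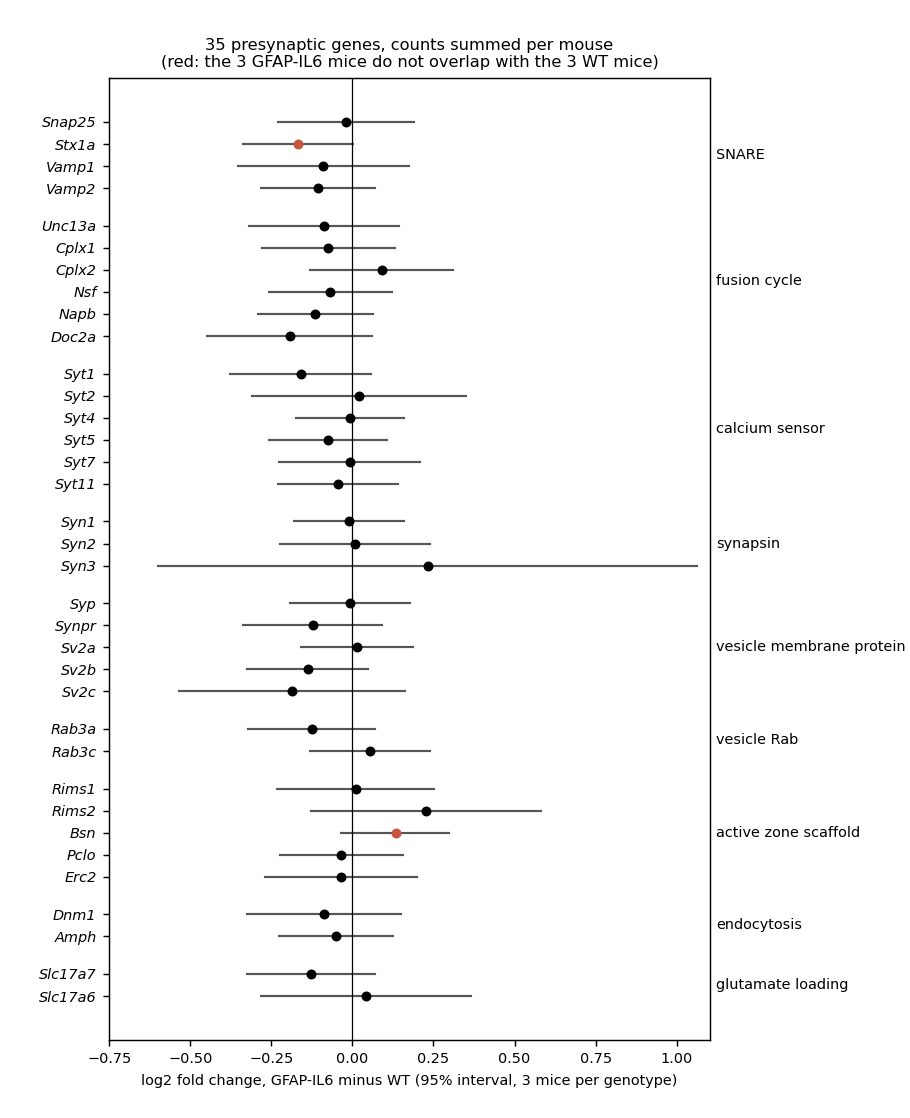
Log2 fold change of each of the 35 presynaptic genes between GFAP-IL6 and WT mice (horizontal axis) with its 95% interval from the edgeR fit, counts summed per mouse, 3 mice per genotype, genes grouped by role. All 35 intervals include 0, that of Syn3 is the widest, and the red points are Stx1a and Bsn, whose genotypes did not overlap.

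The SNARE genes encode the proteins whose assembly fuses the membranes. Snap25 (chromosome 2, 136713453 to 136782428, plus strand, GRCm38), a SNARE of the plasma membrane, was measured at 4036, 3392 and 3345 CPM in the WT mice and at 3584, 3828 and 3206 CPM in the GFAP-IL6 mice. These ranges overlapped, and the log2 fold change was -0.02 (95% interval -0.23 to 0.19). Vamp2, the principal vesicle SNARE of forebrain synapses, had 357, 339.6 and 331.6 CPM in WT mice and 298.7, 319.3 and 336.5 CPM in GFAP-IL6 mice. The highest GFAP-IL6 value lay inside the WT range, with a log2 fold change of -0.11 (-0.28 to 0.07). Vamp1, a relative of Vamp2, had a log2 fold change of -0.09 (-0.35 to 0.17).

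Stx1a (chromosome 5, 135023482 to 135051100, plus strand), the syntaxin that pairs with Snap25 on the plasma membrane, came closest to the threshold. Its level was 336.8, 315.8 and 312.6 CPM in WT mice and 278.1, 296.4 and 284.1 CPM in GFAP-IL6 mice, so all 3 GFAP-IL6 mice lay below all WT mice. That ordering was found in 5.93% of all genes tested, and genotypes without overlap in either direction in 14.4%, against 2 of the 35 genes here. The log2 fold change was -0.17 (SE 0.0794, 95% interval -0.34 to 0.00), with an edgeR adjusted p of 0.572. Over the 14 alternative settings it stayed between -0.20 and -0.14, with adjusted p between 0.018 and 0.983.

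The genes of the fusion cycle prepare the SNAREs, hold them or take them apart. Doc2a, a calcium-binding C2 domain protein of vesicles, had the lowest estimate, with 36.47, 41.78 and 29.79 CPM in WT mice and 29.96, 32.14 and 32.97 CPM in GFAP-IL6 mice. The groups overlapped, and the log2 fold change was -0.19 (-0.45 to 0.06). Cplx2, a complexin that binds the assembled SNAREs, was one of the few genes with a positive estimate. It had 615.9, 632.9 and 736.1 CPM in WT mice against 802.4, 632.8 and 677.3 CPM in GFAP-IL6 mice, a log2 fold change of 0.09 (-0.13 to 0.31). Its relative Cplx1 was at -0.08 (-0.28 to 0.13), so the estimates of the complexins had opposite signs and neither passed the test. Unc13a, the priming factor Munc13-1, was at -0.09 (-0.32 to 0.14). Nsf and Napb, which disassemble SNARE complexes after fusion, were at -0.07 (-0.26 to 0.12) and -0.11 (-0.29 to 0.06).

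Among the synaptotagmins, Syt1 is the sensor of fast, synchronous release. It had 1326, 1321 and 1529 CPM in WT mice and 1431, 1142 and 1166 CPM in GFAP-IL6 mice. GFAP-IL6 mice 2 and 3 lay below all WT mice, and GFAP-IL6 mouse 1 lay inside the WT range. The log2 fold change was -0.16 (SE 0.102, interval -0.38 to 0.06, adjusted p = 0.741), and Syt1 is one of the 3 genes that limma-voom called. The other 5 were closer to 0, at 0.02 for Syt2, -0.01 for Syt4, -0.08 for Syt5, -0.01 for Syt7 and -0.04 for Syt11. Syt7 is a high-affinity sensor linked to asynchronous release and facilitation, Syt2 acts as a fast sensor at some inhibitory and hindbrain synapses, and Syt4 and Syt11 bind calcium poorly.

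Synapsins tether vesicles in the reserve pool. Syn1 had 409.1, 420.5 and 422.2 CPM in WT mice and 396, 419.2 and 427.2 CPM in GFAP-IL6 mice, a log2 fold change of -0.01 (-0.18 to 0.16). Syn2 was at 0.01 (-0.22 to 0.24). Syn3 had the largest positive estimate of all 35 genes, 0.23, but this rests on 1.041, 1.108 and 1.05 CPM in WT mice and 1.16, 1.679 and 0.9598 CPM in GFAP-IL6 mice. Its change was not detectable at this depth.

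The vesicle membrane proteins gave no call either. Syp, synaptophysin, is the standard marker of vesicles and had 139.2, 127 and 118.1 CPM in WT mice and 120.8, 131.8 and 129.8 CPM in GFAP-IL6 mice. The GFAP-IL6 values lay within the WT range, with a log2 fold change of -0.01 (-0.19 to 0.18). Sv2b, a glycoprotein of the vesicle membrane, had 188.3, 199 and 209.7 CPM in WT mice and 199, 173 and 170.9 CPM in GFAP-IL6 mice, a log2 fold change of -0.14 (-0.33 to 0.05). Its relative Sv2c had 9.262, 12.25 and 9.187 CPM against 8.86, 10.12 and 8.275 CPM, a log2 fold change of -0.19 (-0.54 to 0.16), and Sv2a was at 0.01 (-0.16 to 0.19). Synpr, synaptoporin, was at -0.12 (-0.34 to 0.09).

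Active zone scaffolds hold vesicles near calcium channels. Bsn, bassoon, was the other gene without overlap between genotypes, with 112.9, 114.4 and 115.4 CPM in WT mice and 126.8, 127.3 and 121.6 CPM in GFAP-IL6 mice. Its log2 fold change was 0.13 (SE 0.078, interval -0.03 to 0.30), with an adjusted p of 0.722. An annotated gene on the same strand, Gm47303, overlaps an exon of Bsn. Rims2, a scaffold that binds Rab3 and Munc13, had 20.6, 23.72 and 21.79 CPM in WT mice and 35.55, 22.64 and 21.12 CPM in GFAP-IL6 mice. GFAP-IL6 mouse 1 alone stood above the rest, and the log2 fold change of 0.23 (-0.13 to 0.58) rests on it. Pclo, piccolo, the large relative of bassoon, was at -0.03 (-0.22 to 0.15), Rims1, the relative of Rims2, at 0.01 (-0.23 to 0.25) and Erc2, a scaffold that binds the Rims, at -0.04 (-0.27 to 0.20).

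The remaining genes belong to vesicle trafficking, recycling and loading. Rab3a, the main Rab GTPase of synaptic vesicles, was at -0.13 (-0.32 to 0.07) and its relative Rab3c at 0.05 (-0.13 to 0.24). Rab3c had 145.5, 140.5 and 128.1 CPM in WT mice and 155.4, 135.9 and 140.1 CPM in GFAP-IL6 mice, with overlapping ranges. Rab3a is the third gene that limma-voom called, and in the summed comparison its adjusted p was 0.788. Dnm1, the dynamin that cuts endocytic vesicles from the membrane, was at -0.09 (-0.33 to 0.15), and Amph, its partner amphiphysin, at -0.05 (-0.23 to 0.13). Slc17a7, the vesicular glutamate transporter of most cortical excitatory neurons, had 99.38, 107.8 and 123.4 CPM in WT mice and 95.67, 101.2 and 104.4 CPM in GFAP-IL6 mice. Its log2 fold change was -0.13 (-0.33 to 0.07). Slc17a6, the transporter of thalamic and other subcortical neurons, was at 0.04 (-0.28 to 0.37).

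**Figure D2:**
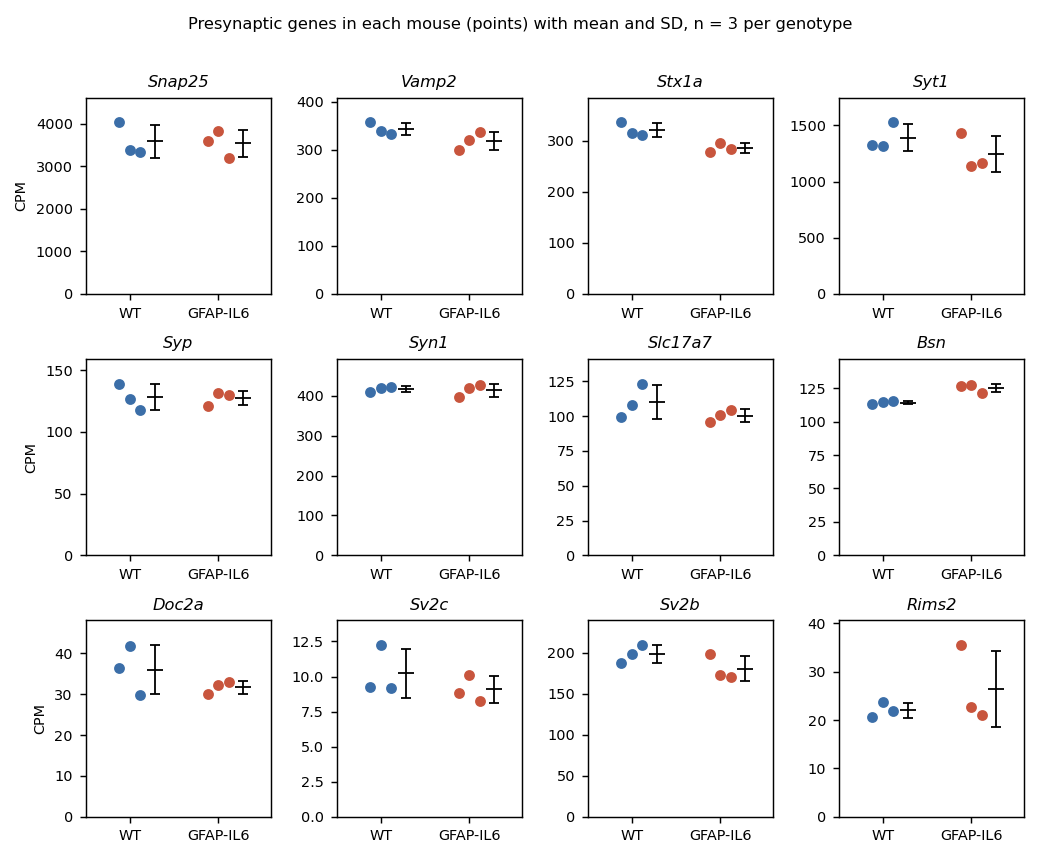
CPM (vertical axis, from 0) of 12 presynaptic genes in each of the 3 WT (blue) and 3 GFAP-IL6 (red) mice, with the mean and SD of each genotype beside the points. Only Stx1a and Bsn show no overlap between genotypes, and GFAP-IL6 mouse 1 stands apart in Rims2 at 35.55 CPM.

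By role, the summed level in GFAP-IL6 mice as a ratio of that in WT mice was 0.973 for the 4 SNAREs, 0.973 for the 6 genes of the fusion cycle, 0.934 for the 6 calcium sensors and 0.998 for the 3 synapsins. The ratio was 0.969 for the 5 vesicle membrane proteins, 0.932 for the 2 Rabs, 1.02 for the 5 active zone scaffolds, 0.947 for the 2 endocytosis genes and 0.924 for the 2 glutamate transporters. These sums are descriptions and give most weight to the members with the most counts. GFAP-IL6 mouse 1 was the highest of the 6 mice in 8 of the 35 genes and the lowest in another 8, and WT mouse 3 was the highest in 10 and the lowest in 5. Counts within a gene were deep, with a median over the 35 genes of 3482 counts per mouse against 322.2 for all genes tested.

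A wider list of 64 other presynaptic genes was read from the same fit. All 64 were tested, and 51 had an estimate below 0, where 7583 of all 14621 genes tested did. The median log2 fold change was -0.068, and 1 was called, again beside 1.80% of all genes. That gene was Cplx3, a complexin outside the 35, and it was lower in GFAP-IL6 mice. It had 48.96, 53.92 and 52.49 CPM in WT mice and 38.6, 38.09 and 37.43 CPM in GFAP-IL6 mice. The groups did not overlap, and the log2 fold change was -0.45 (SE 0.0911, interval -0.64 to -0.25, edgeR adjusted p = 0.0161), or 0.734 of the WT level. Without WT mouse 2 the adjusted p of Cplx3 was 0.131, without GFAP-IL6 mouse 2 it was 0.0832 and without GFAP-IL6 mouse 3 it was 0.127, so the call was lost in each of these cases while the log2 fold change stayed between -0.49 and -0.42 over all alternatives. The genes next in order of p did not pass. They were Dnm2, a dynamin found in all tissues, at 0.37 (adjusted p = 0.207), Cadps2, a priming factor of dense core vesicles, at -0.34 (0.421), Ap2a1, a clathrin adaptor subunit, at -0.24 (0.68) and Atp6v0a1, a subunit of the proton pump, at -0.17 (0.691).

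The genotype comparison was repeated in each of the 4 sets, which hold the same 6 mice and so are technical repeats of one another. Of the 35 genes, 34 passed the filter in each set, all except Syn3, and 0 were called by edgeR or by DESeq2 in any of the 4. The shares of all genes called were 1.03% with 2 ng in set A, 1.08% with 2 ng in set B, 1.10% with 1 ng in set A and 1.08% with 1 ng in set B. At an unadjusted p under 0.05 there were 1, 0, 2 and 0 of the 34 genes in the same order. Over all genes tested there were 925 of 12190, 828 of 12233, 911 of 12407 and 905 of 12974. With both sets of an amount summed, again 0 were called, where 1.54% of all genes were called with 2 ng and 1.51% with 1 ng.

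How far the 4 sets repeated the same difference varied between genes. Doc2a ran from -0.39 to 0.00 on the log2 scale, Synpr from -0.28 to 0.04 and Pclo from -0.17 to 0.11. Syt1 was at between -0.16 and -0.15 on the log2 scale in the 4 sets, Stx1a between -0.19 and -0.15, Sv2b between -0.16 and -0.12 and Bsn between 0.05 and 0.18. In all, 14 of the 34 genes had a negative estimate in each of the 4 sets and 3 (Cplx2, Rims2 and Bsn) a positive one, while the other 17 had both signs. Since the mice are the same, this describes the repeatability of the measurement and not of the genotype difference. The share of all genes with the same sign in the 4 sets was not counted. Neither the genotype by cDNA amount nor the genotype by set interaction gave a call, with 0 of the 35 genes and 0% of all genes in both, and 0 of the 35 at an unadjusted p under 0.05 in either edgeR fit, where 93 and 239 of all genes were under it. With the mouse as a block, 1 and 2 of the 35 had an unadjusted p under 0.05, where 538 of 13961 and 597 of 14167 genes tested were under it. Of the 35, 0 were called in these fits.

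**Figure D3:**
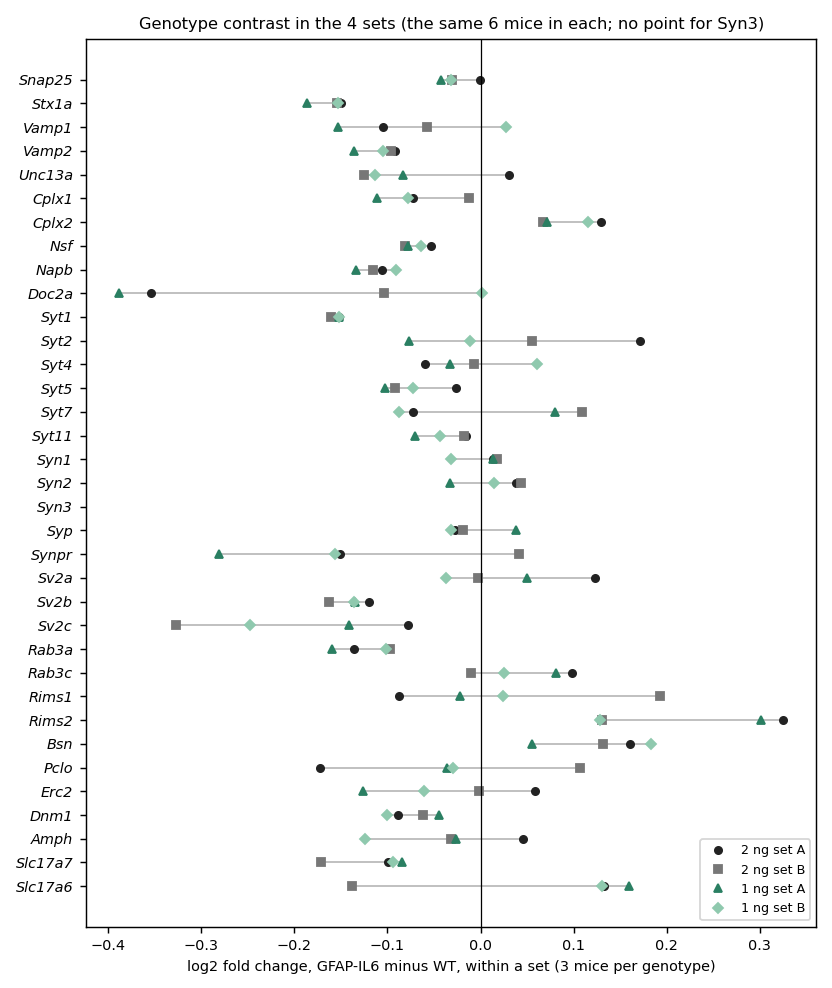
Log2 fold change between GFAP-IL6 and WT mice (horizontal axis) of each presynaptic gene within each of the 4 sets of 6 libraries, 1 symbol per set and a grey line from the lowest to the highest. The values lie between -0.39 and 0.32, and Syt1 and Stx1a are below 0 in all 4 sets.

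Some presynaptic genes passed the test between cDNA amounts and between sets, as did the shares of all genes given beside each count. Those called with genotype as the covariate had the same direction in each mouse, which was not so for all those called with the mouse as a block. Between 2 ng and 1 ng, edgeR called 6 of the 35 genes, where 12.2% of all genes were called (5.37% higher and 6.79% lower with 2 ng). Snap25, Syp, Synpr and Vamp2 were higher with 2 ng and Stx1a and Syn1 lower. The same mouse gave both amounts, and with the mouse as a block 22 of the 35 genes were called, 7 higher and 15 lower, against 32.0% of all genes. The 35 genes had a median of 3482 counts per mouse against 322.2 for all genes tested, and deeper genes are called more easily. Genes of equal depth were not compared. The shares here, and those between sets and of the interaction below, therefore do not show that presynaptic genes are called more often.

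Of the 6 called genes, Stx1a had the larger of the decreases with 2 ng. Its level was 264 ± 18.03 CPM with 2 ng and 334.7 ± 26 CPM with 1 ng (SD, n = 6 mice), and it was lower with 2 ng in 6 of 6 mice. The log2 difference was -0.34 (SE 0.0508, edgeR adjusted p = 5.84e-05), and with the mouse as a block it was -0.28 in set A and -0.37 in set B. This is larger than the estimate of -0.17 between genotypes. Syp was at 148.3 ± 13.3 CPM with 2 ng and 113.4 ± 5.219 CPM with 1 ng, higher in 6 of 6 mice, with a log2 difference of 0.39 (SE 0.0623, adjusted p = 0.000133). Snap25 differed by 0.24 (SE 0.0663, adjusted p = 0.0174), Synpr by 0.31 (SE 0.0746, adjusted p = 0.00679), Vamp2 by 0.18 (SE 0.0528, adjusted p = 0.0321) and Syn1 by -0.19 (SE 0.0526, adjusted p = 0.0201), each in the same direction in 6 of 6 mice.

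Between sets A and B, 3 of the 35 genes were called, where 6.80% of all genes were called. Snap25 was at 4121 ± 408.5 CPM in set A and 3090 ± 262.9 CPM in set B (SD, n = 6), a log2 difference of 0.42 (SE 0.0666, edgeR adjusted p = 0.000241). Vamp2 differed by 0.20 (adjusted p = 0.0314) and Syt4 by 0.18 (adjusted p = 0.037), and each of the 3 was higher in set A in 6 of 6 mice. With the mouse as a block 22 of the 35 were called, 6 higher and 16 lower in set A, against 22.6% of all genes. Stx1a was not called between the sets, with a log2 difference of 0.01 (SE 0.0535), although with 2 ng alone and the mouse as a block it was higher in set A by 0.11 (SE 0.0361, adjusted p = 0.0153).

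The libraries made with 2 ng in set A stood apart in several of these genes. Snap25 was between 4302 and 5521 CPM (median 4719) in its 6 libraries and between 2727 and 4037 CPM in the other 18. Vamp2 was between 363.9 and 450.8 CPM (median 411.5) there and between 267.4 and 350.5 CPM elsewhere. For these 2 genes, every library of that set lay above every other library. Syp had a median of 176 CPM in that set, against 121.8 CPM with 2 ng in set B, 107.5 CPM with 1 ng in set A and 116 CPM with 1 ng in set B, and was highest there in 5 of 6 mice. Dnm1 was highest there in 5 of 6 mice, and 8 genes (Cplx2, Napb, Syt1, Syt11, Syn1, Syn2, Sv2a and Rab3a) were lowest there in 6 of 6 mice. The share of all genes with such orderings was not counted, so they cannot be called particular to presynaptic genes. Between sets A and B with 2 ng, edgeR with the mouse as a block called 4118 of 12711 genes tested, among them 22 of the presynaptic genes.

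The difference between the sets in the effect of the amount was tested directly, in a comparison chosen after the data had been seen. With the mouse as a block, edgeR called the amount by set interaction in 13 of 34 genes, where 11.4% of all genes were called, and without the block it called 3, where 2.85% of all genes were called. Between 2 ng and 1 ng Snap25 differed by 0.43 on the log2 scale in set A and by -0.03 in set B, an interaction of 0.48 (SE 0.0197, adjusted p = 6.23e-53). Vamp2 differed by 0.40 and -0.06, and Syp by 0.73 and 0.06. If each set was 1 pool, the SE and p of these fits do not measure how an amount effect repeats between reactions. Stx1a was lower with 2 ng in both sets, and its interaction of 0.11 (SE 0.0451) did not pass (adjusted p = 0.0959). The genotype comparison without the 6 libraries of 2 ng in set A again called 0 of the 35 genes, with a median log2 fold change of -0.061.

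**Figure D4:**
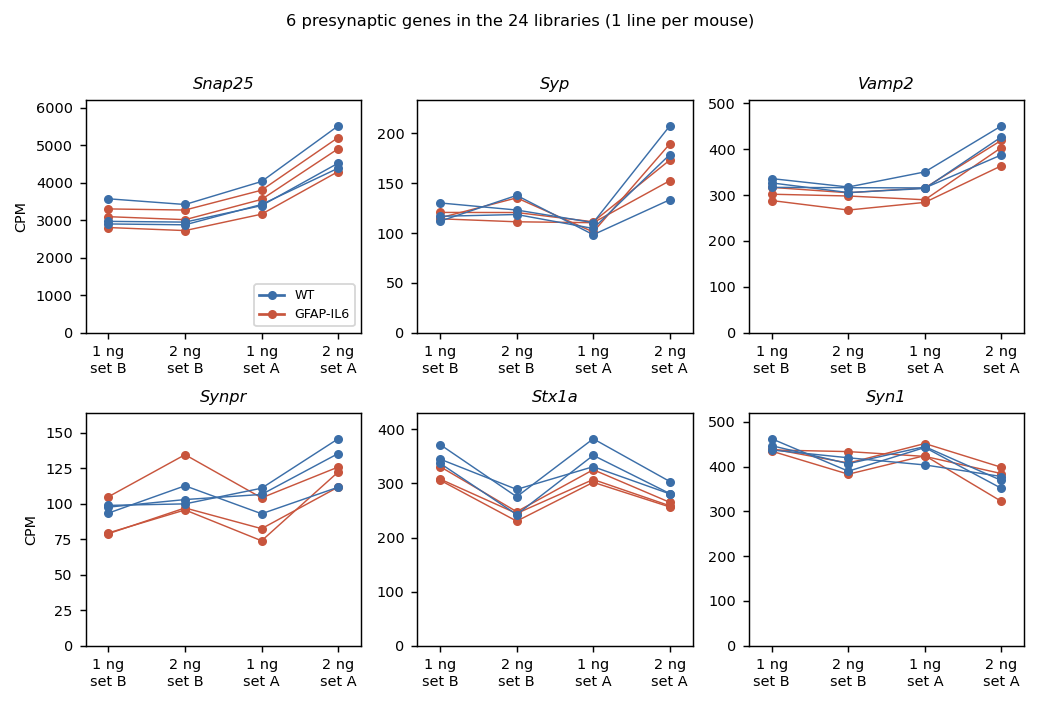
CPM (vertical axis, from 0) of 6 presynaptic genes in the 24 libraries, by set on the horizontal axis, with 1 line per mouse (WT blue, GFAP-IL6 red). Snap25 and Vamp2 are above all other libraries with 2 ng in set A, and Stx1a is lower with 2 ng than with 1 ng in both sets.

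**Figure D5:**
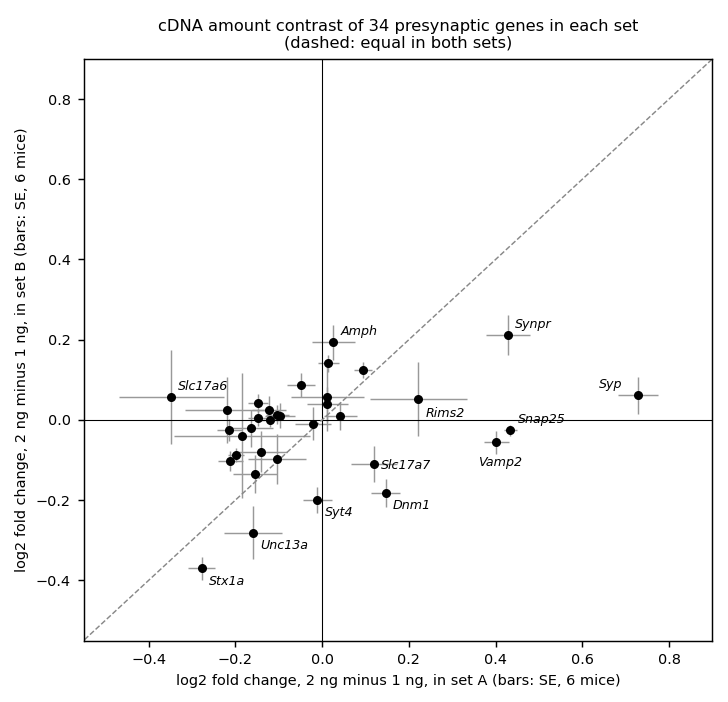
Log2 fold change between 2 ng and 1 ng of cDNA in set A (horizontal axis) and in set B (vertical axis) of 34 presynaptic genes, from edgeR with the mouse as a block, with SE bars over 6 mice and a dashed line where both would be equal. Syp, Snap25 and Vamp2 lie far to the right of the line at 0.73, 0.43 and 0.40 in set A and near 0 in set B, while Stx1a is below 0 in both. If each set was 1 pool, the SE bars do not measure how an amount effect repeats between reactions.

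The spread of single libraries can be set beside that of mice. On the log2 scale, the median SD among the 4 libraries of a mouse was 0.139. The median SD between mice of a genotype, taken on the means of their 4 libraries, was 0.131. The spread within mice was the larger in 20 of the 35 genes. These are unlike measures, of single libraries and of means. The spread within mice also holds the differences between amounts and sets that the mice share, as in Snap25 (0.304) and Syp (0.318). It is therefore not a measure of random variation between libraries. In 13 of the 35 genes an exon of another annotated gene overlaps one of their exons, in 12 of them only on the other strand, and whether reads were counted by strand is not given in the sources used here. Among the genes with values by mouse above, this applies to Syn1 (with Araf), Syn3 (with Timp3), Syp (with Gm14703), Doc2a (with Ino80e), Sv2b (with 1500012K07Rik) and, on the same strand, Bsn (with Gm47303).

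Promoter sequences from RefSeq (GRCm38.p6, 250 bases before to 50 after the annotated start) matched 27 of the 35 genes. They were searched on both strands for the letters TTCAGCACC, the left part of the RE1 element bound by the neuronal repressor REST, and for TGACGTCA, the cAMP response element. The first was found in 2 of the 27 promoters (Unc13a and Syn1) and in 0.433% of 27025 genes, and the second in 1 (Syn1) and in 2.03%. They are shown because the element of Syn1 is a textbook case of how presynaptic genes are kept to neurons, with the matched letters in capitals and no overlap with each other, Unc13a from chr8:71671716-71671745 (plus strand), Syn1 from chrX:20921131-20921160 and chrX:20921059-20921088 (minus strand).
Unc13a, RE1 left part: ggccatgtcgcTTCAGCACCgggggcgcgg
Syn1, RE1 left part: cactgtcggaTTCAGCACCgcggtcagagc
Syn1, cAMP response element: caaaggctgacTGACGTCActcactagccc
The genes with these letters had genotype estimates of -0.09 (Unc13a) and -0.01 (Syn1) on the log2 scale, and a match is no evidence that a factor was bound. The GC box, CCGCCC, was searched for as well. It was found in 21 of the 27 promoters (77.8%) and in 38.2% of the 27025 genes. The base composition of the promoters was not compared.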

How the data were processed

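The authors reverse-transcribed total RNA with barcoded oligo-dT primers, pooled samples, amplified and tagmented the cDNA, aligned reads to mm10 with STAR 2.4 (per the labels) and counted uniquely aligned reads on GENCODE genes with featureCounts. The genome build in the submitters' processing notes is hg19, against mm10 in the study's methods. They deposited raw counts per gene and library, with no normalization, and these counts were used as deposited.

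Counts of the 4 libraries of a mouse were summed (n = 3 mice per genotype). The test between genotypes was glmQLFTest of edgeR 4.0.16 (R 4.3.3) after TMM scaling and filterByExpr, two-sided, with Benjamini-Hochberg adjustment over all genes tested. A gene was called at an adjusted p under 0.05. The fold change intervals are at 95%. CPM are TMM-scaled and not corrected for gene length. The amount and set contrasts had genotype as a covariate, or the mouse as a block, since the same mouse gave both libraries. The study's methods name DESeq2, run here as DESeq2 1.42.0, and limma 3.58.1 was used for voom. Other settings are given in the closing section. Scripts were tested on simulated data. Figures were drawn with matplotlib 3.10.9. Positions are from GENCODE vM21 (GRCm38), in which all 35 identifiers were found.

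The 35 genes, the other lists and the tests were chosen with earlier results of these data known. All 35 are named. Values by mouse are given for the 5 largest estimates in each direction, for genes without overlap between genotypes, and for Snap25, Syt1, Syp, Syn1, Vamp2 and Slc17a7. Amount and set contrasts name the called genes, at most 8. The genes named for the set made with 2 ng in set A were chosen after their values were seen. Of the other presynaptic genes, the 5 with the smallest p are named.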

Additional observations from a re-analysis of the deposited data

Results flagged for a closer look

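In 5 of the presynaptic genes named in the amount and set contrasts, the difference between 2 ng and 1 ng was not the same in sets A and B by an edgeR test of the interaction with the mouse as a block. The interaction, set A minus set B on the log2 scale, was 0.48 for Snap25 (0.479, adjusted p = 6.23e-53), 0.478 for Vamp2 (adjusted p = 1.36e-19), 0.687 for Syp (adjusted p = 9.28e-16), 0.206 for Syt4 (adjusted p = 0.00147) and 0.236 for Synpr (adjusted p = 0.0294). The test was chosen after the data had been seen, and if each set was 1 pool, 1 reaction stands for each combination of amount and set.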

How the results depend on the processing

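Across the 14 alternatives to the summed genotype comparison, 15 of the 35 genes kept the sign of their estimate in all, and 3 were called in any, all by limma-voom. The count of genes called was 0 under every edgeR and DESeq2 setting, and the replicate block of same-numbered mice, which share only a number across genotypes (correlations of deviations -0.047, -0.035 and -0.042), gave 0 of the 35, 1 of the 64 other presynaptic genes and 215 genes in all, against 0, 1 and 263 without it. The median log2 fold change of the 35 ran from -0.079 (without GFAP-IL6 mouse 1) to -0.003 (without WT mouse 3) when 1 mouse was left out. Genes called in all were 462 with no filter, 544 with limma-voom and 146 to 321 with a mouse left out. Of the 64 other presynaptic genes, limma-voom called 4, leaving out a mouse gave 0 to 1, and leaving out WT mouse 3 and GFAP-IL6 mouse 1, the mice with the fewest counts, gave 2 (chosen after seeing the data). Within sets and amounts every alternative left 0 genes called. Between 2 ng and 1 ng the count was 22 with the mouse as replicate block, 2 within set B and 3 to 6 with a mouse left out, where the main count was 6. Within set B, 771 of all 12778 genes tested were called. Between sets A and B the count was 22 with the replicate block, 11 within 2 ng, 1 within 1 ng and 1 to 4 with a mouse left out, where the main count was 3. Of all genes tested, 2535 of 12711 were called within 2 ng and 92 of 13048 within 1 ng. The amount by set interaction gave 13, or 3 with no replicate block and 10 to 15 with a mouse left out. For the amount, set and interaction fits with a mouse left out, the share of all genes called was not counted. The choroid plexus ratio of 0.29 was between 0.176 and 3.158 with a mouse left out, the highest without WT mouse 3. The cause of these changes was not tested. The lowest-count genes, Syn3 first, are limited by depth.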
